A study of Mus musculus with 17 samples.

Results

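The AP-1 and EGR immediate early genes were followed through 7 days of culture of adult mouse neural retinal progenitor cells (mNRPCs) with and without basic fibroblast growth factor (bFGF). They are 10 of the 18836 genes listed in the RNA-seq files and were chosen by symbol: Fos, Fosb, Fosl1 and Fosl2 of the Fos family, Jun, Junb and Jund of the Jun family, Egr1, Egr2 and Ier3. The rule for membership uses gene names and no measured value, although the list was drawn up with earlier results of these data known. For 8 of the 10, the mean level over the cultured libraries was at least 1 FPKM (fragments per kilobase of transcript, scaled to the library total), which was the minimum for a test. Egr2 and Ier3, at means of 0.469 and 0.399 FPKM, are given by their values.

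Cells came from neural retinas of C57BL/6 mice, 8 to 10 weeks old, and had been grown on Matrigel in basic medium (BM, DMEM/F12 with N2, B27 and beta-mercaptoethanol) with bFGF and CHIR99021, which blocks the kinase GSK-3. The study asked what each of these 2 additives does to the cells. RNA was sequenced in 17 libraries, 1 of the untreated cells on day 0 and 1 for each of 4 media on days 1, 3, 5 and 7: BM alone, B, to which bFGF was added, C, to which CHIR99021 was added, and BC, which held both additives. The study's text describes the day 0 library both as cells in BM and as cells before treatment, so its levels are given beside the others without a test. No treatment and day was sequenced more than once. The spread behind each p-value below is therefore the departure of single libraries from the effects of day, bFGF and CHIR99021 in a model, and not a spread between cultures.

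Total expected counts lay between 17571973 and 19428744 per library, so depth was even. The retinal progenitor markers Pax6 (10.7 to 207 FPKM), Six3 (20.4 to 62.9 FPKM) and Sox2 (27.7 to 89.9 FPKM) were present in the 17 libraries and fell with bFGF over days 1 to 7 (log2 fold changes of -1.94, -0.50 and -0.48, edgeR adjusted p = 0.000148, 0.00085 and 0.0014), whereas Rax was at or near 0 (at most 0.07 FPKM). Of the 10 progenitor markers listed, 7 were tested for this effect, and 4 passed lower and 1 higher. The background was 33.9% of all tested genes lower and 34.6% higher. Ccnd1, also on this list, was higher with bFGF on day 7, at 271.5 (B) and 253.5 FPKM (BC) against 128.8 (BM) and 82.9 FPKM (C). The 7 Müller glia and astrocyte markers summed to 17.7 FPKM on day 0 and, on day 7, to 118 (BM), 191 (C), 73.7 (B) and 81.7 FPKM (BC). Most of the day 7 sum was Apoe, while Slc1a3, Gfap, Rlbp1 and S100b were at most 0.13 FPKM. Only 2 of the 7 were tested, and they moved in opposite directions with bFGF over days 1 to 7. Glul was higher (log2 fold change 0.70, edgeR adjusted p = 0.000288) and Apoe lower (-0.68, adjusted p = 0.00384), so the sum follows Apoe. Summed levels of the microglia and endothelial marker lists stayed at or under 2.58 and 1.27 FPKM. The 6 fibroblast and pericyte markers summed to 37.2 to 516 FPKM without bFGF and 9.73 to 43.3 FPKM with it. Acta2 was the most abundant of them without bFGF and on day 1 with it, and Pdgfrb with bFGF on days 3, 5 and 7. All 4 of these markers that were tested fell with bFGF over days 1 to 7. The part of these marker lists in the results below was not tested. In bulk RNA, fewer cells that express a gene and less of its RNA per cell cannot be told apart.

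Immediate early genes are switched on by proteins already present in the cell when a signal arrives, without new protein synthesis. A growth factor such as bFGF activates its receptor and the ERK kinases, which act on ternary complex factors bound with SRF at CArG boxes in the promoters of genes such as Fos and Egr2. Fos and Jun proteins then pair through leucine zippers to form the transcription factor AP-1, and Egr1 and Egr2 are zinc finger factors that bind GC-rich sites. Their RNAs are short-lived, and the later members Fosl1 and Fosl2 follow sustained signalling. In the retina, growth factor signalling through ERK is known to induce these genes in Müller glia after injury. By western blot, the study found the ERK pathway active in cells of every medium, with or without bFGF, though not equally. How ERK activity relates to the RNA levels below was not tested.

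Fosl1, which codes for FRA1, the Fos family member best known to follow sustained ERK activity, was the member most separated by bFGF. Its level was 109.7 FPKM on day 0. Without bFGF it was 32.5 (BM) and 20.7 FPKM (C) on day 1, 2.19 and 2.81 FPKM on day 3, 5.1 and 3.12 FPKM on day 5, and 5.54 and 3.95 FPKM on day 7. With bFGF it was 85.4 (B) and 86.6 FPKM (BC) on day 1, 87.4 and 37.5 FPKM on day 3, 38.0 and 35.0 FPKM on day 5, and 75.5 and 81.4 FPKM on day 7. The lowest library with bFGF stood above the highest without it, and Fosl1 was the only tested member whose 2 sets of 8 libraries did not overlap. Of all 11272 genes tested, 1.39% were separated in this direction and 4.44% in the other. The fitted bFGF effect over days 1 to 7 was 12.9-fold (log2 fold change 3.69, SE 0.40, edgeR quasi-likelihood test, Benjamini-Hochberg adjusted p = 4.44e-05). By day it was 3.51-fold on day 1, 25.6-fold on day 3, 12.3-fold on day 5 and 24.7-fold on day 7, past the threshold of 0.05 on each. Fosl1 lies on chromosome 19 from 5447698 to 5455938 (GRCm38.p6, the assembly that the labels name as mm10).

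Across the 8 tested members, 5 passed the threshold for the bFGF effect over days 1 to 7, 4 of them higher and 1 lower. The background was 34.6% of all tested genes higher and 33.9% lower, so most of the transcriptome was also called and the count says little about the members as a group. Of the genes called, 50.5% were higher with TMM and 28.2% without it. The median log2 fold change of the 8 tested members was 0.28, and that of all tested genes was -0.002. FPKM carries no TMM factor (the scaling of edgeR across libraries, 0.75 to 1.13 here), whereas fitted fold changes do, so a fitted change can be smaller or larger than the FPKM beside it.

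**Figure D1:**
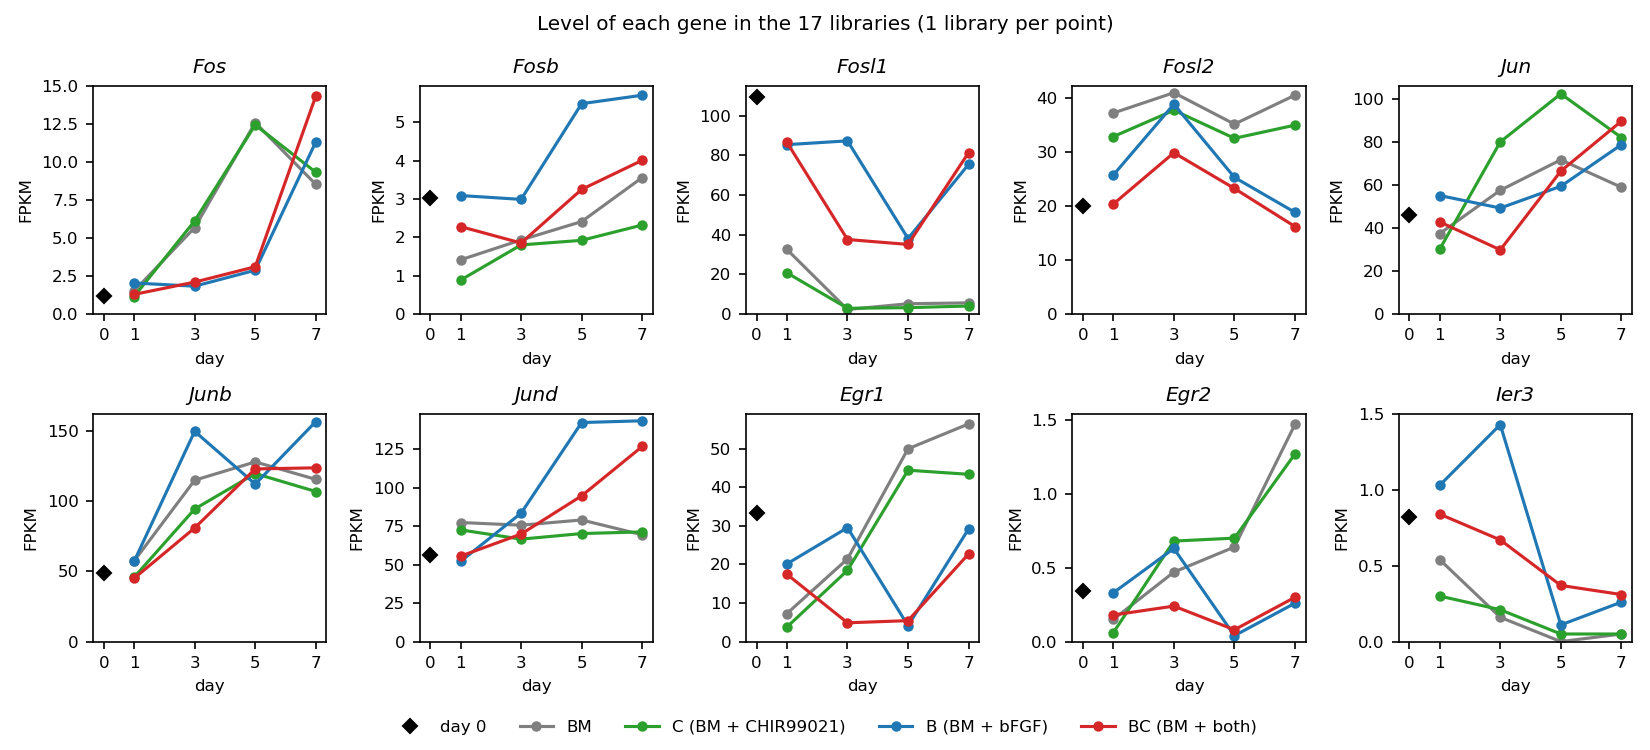
FPKM of each of the 10 genes (vertical axis, starting at 0) against the day of culture, with 1 library per point, day 0 as a black diamond and 1 line each for BM, C, B and BC. Fosl1 lies at 35.0 FPKM or more in the bFGF libraries and at 32.5 FPKM or less without bFGF, while Fos on days 3 and 5 is higher without bFGF.

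Fos, the founding AP-1 subunit and a short-lived response to growth factors, showed the reverse order on days 3 and 5. It stood at 1.2 FPKM on day 0 and between 1.14 and 2.03 FPKM in the 4 libraries of day 1. Without bFGF it reached 5.68 (BM) and 6.12 FPKM (C) on day 3, 12.6 and 12.4 FPKM on day 5, and 8.52 and 9.32 FPKM on day 7. With bFGF it remained at 1.82 (B) and 2.09 FPKM (BC) on day 3 and 2.87 and 3.1 FPKM on day 5, and then reached 11.3 and 14.3 FPKM on day 7. The 2 bFGF libraries were thus below the other 2 on days 3 and 5 and above them on day 7. The fitted effect was 2.82-fold lower with bFGF on day 3 (adjusted p = 0.00012), 3.07-fold lower on day 5 (adjusted p = 9.39e-06) and 2.1-fold higher on day 7 (adjusted p = 0.000141, all edgeR). Because the directions opposed each other, the effect over all days was small (log2 fold change -0.42, SE 0.37, adjusted p = 0.32). Counts behind the low levels were modest: 45 in C on day 1, for which the exact Poisson interval is 32.8 to 60.2 and covers counting error only.

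The 150 bases before the RefSeq start of Fos are shown because they hold the short CRE core through which cAMP and calcium signals are known to reach this gene. Capitals mark TGACG, the CRE core, which was searched on both strands and found at positions -129 to -125 and -66 to -62, counted back from the start. The stretch is chr12:85473740-85473889 of GRCm38.p6, plus strand.
Fos: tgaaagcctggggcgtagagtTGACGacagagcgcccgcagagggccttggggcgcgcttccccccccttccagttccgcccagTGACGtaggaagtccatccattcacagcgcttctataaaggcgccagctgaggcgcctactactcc
The core was present in 20.8% of the 32851 RefSeq mouse promoters, each taken from 250 bases before to 50 after a start, so its presence does not set Fos apart. The complete CRE (TGACGTCA, in 1.79% of promoters) and the TRE, the AP-1 site TGACTCA (in 5.2%), matched no promoter of the 8 members in that table (Jun, Fosl2, Fosb, Jund, Junb, Egr2, Fos and Ier3). A match is a description of the letters only.

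Fosb, whose truncated product accumulates under repeated stimulation, was higher with bFGF in 8 of 8 pairs of libraries that differed in bFGF only. So were Fosl1 and Ier3, against 10.6% of all tested genes that were higher in 8 of 8 pairs. It stood at 3.03 FPKM on day 0 and, in BM, C, B and BC, at 1.41, 0.88, 3.09 and 2.28 FPKM on day 1 and 3.56, 2.32, 5.71 and 4.01 FPKM on day 7. Over the 8 libraries without bFGF the range was 0.88 to 3.56 FPKM (median 1.92), and with bFGF 1.85 to 5.71 FPKM (median 3.17), so the groups overlapped. The fitted rise was 2.17-fold over days 1 to 7 (log2 fold change 1.12, SE 0.15, edgeR adjusted p = 0.00014). On day 3 the increase was smaller and missed the threshold (1.34-fold, adjusted p = 0.0597), but passed without C of day 3 (adjusted p = 0.0172). On days 1, 5 and 7 it was 2.49-, 2.71- and 2.45-fold and passed.

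Fosl2 codes for FRA2 and moved the other way. In BM it lay between 35.2 and 41.0 FPKM and in C between 32.6 and 37.8 FPKM, close to level over the days. In B it was 25.7, 38.9, 25.3 and 18.8 FPKM on days 1, 3, 5 and 7, and in BC 20.4, 29.9, 23.2 and 16.2 FPKM. Day 0 was at 19.9 FPKM. Fosl2 was lower with bFGF in 8 of 8 pairs, as were 26.1% of all tested genes, and the fitted fall was 1.24-fold (log2 fold change -0.31, SE 0.09, edgeR adjusted p = 0.0079). It passed on day 1 (1.44-fold lower, adjusted p = 0.00506) and day 7 (1.48-fold lower, adjusted p = 9.93e-05). On days 3 and 5 the fitted values were -0.11 and -0.04 on the log2 scale, and these 2 depend on the scaling: without TMM the day 5 value was -0.48 and passed.

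Fosl2 and Fosb are shown because their promoters, alone among those matched, hold the 9-letter EGR site (GCGGGGGCG or GCGTGGGCG, both strands), which 3.47% of all promoters in the table hold. Capitals mark the EGR site and, in Fosb, the CRE core that precedes it. The Fosl2 stretch is chr5:32136322-32136471, plus strand, with the EGR site at -79 to -71. The Fosb stretch is chr7:19310081-19310110, minus strand, from -65 to -36, with the core at -60 to -56 and the EGR site at -50 to -42.
Fosl2: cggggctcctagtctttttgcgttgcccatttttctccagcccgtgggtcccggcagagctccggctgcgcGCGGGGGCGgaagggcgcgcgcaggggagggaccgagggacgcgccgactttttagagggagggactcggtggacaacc
Fosb: gcgggTGACGcaagcGCGGGGGCGggtccc
Fosb rose and Fosl2 fell with bFGF, both hold this site, and whether Egr1 or Egr2 binds there was not measured.

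The share of each Fos family member shifted with these changes. On day 0 Fosl1 made up 81.9% of the summed Fos family FPKM and Fosl2 14.9%. With bFGF Fosl1 held 52.6% to 78.4% in each library, whereas without it the share was 44.7% (BM) and 37.3% (C) on day 1 and 4.31% to 9.52% later. Fosl2 then made up 63.6% to 80.7% of the family and Fos 11.2% to 24.9%. FPKM is scaled by transcript length, so these shares compare RNA levels between genes and not proteins. The family summed to 48.5 to 72.7 FPKM without bFGF and to 64.7 to 131 FPKM with it, which overlaps at BM of day 1 and at BC of day 3, BC of day 5 and B of day 5.

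**Figure D2:**
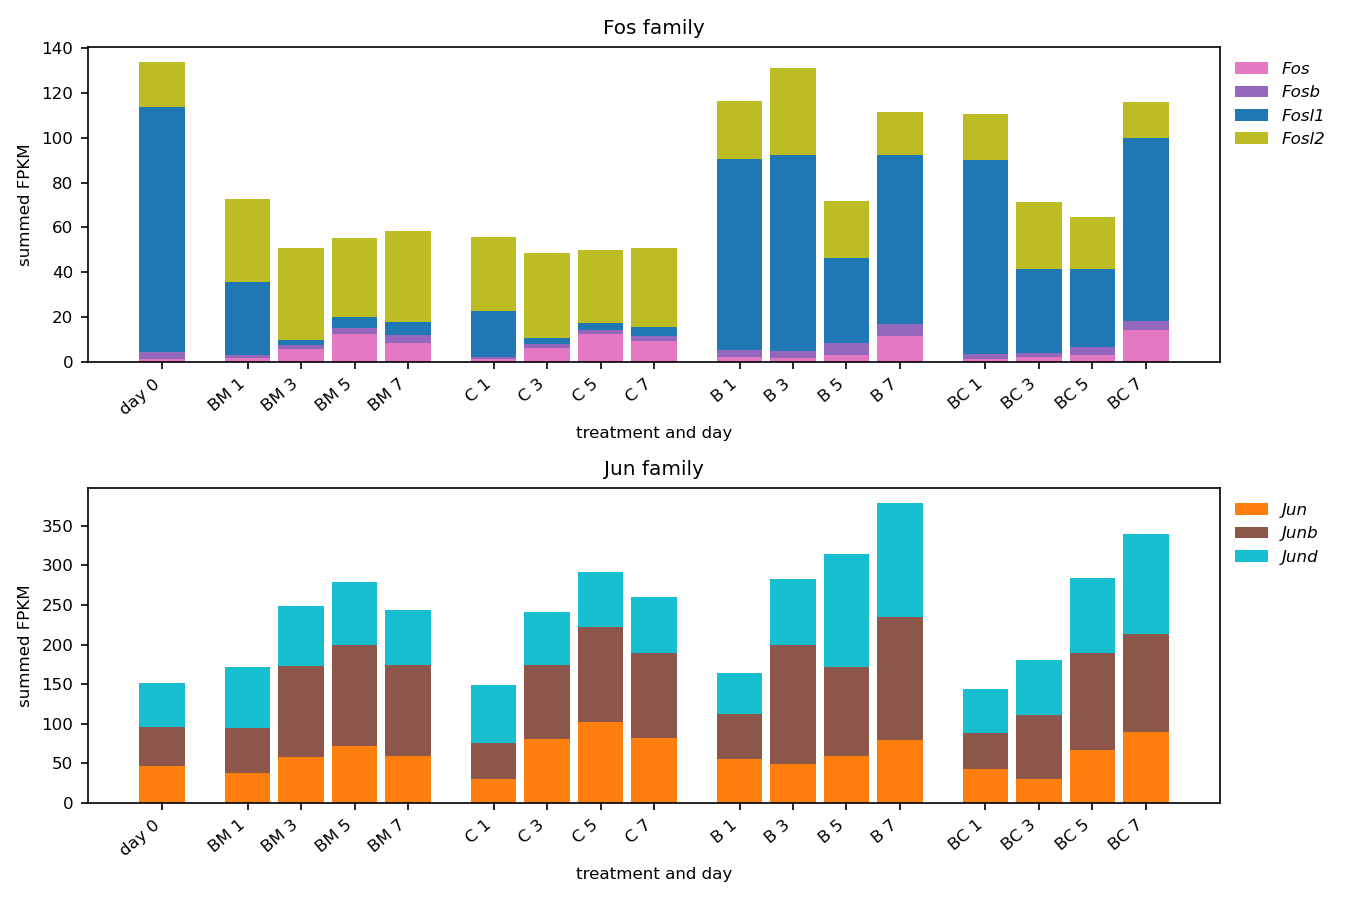
Summed FPKM (vertical axes, starting at 0) of the Fos family (upper panel) and the Jun family (lower panel) in each of the 17 libraries, stacked by member. Fosl1 (blue) is the main part of the Fos family on day 0 and in every library with bFGF, and Fosl2 (yellow-green) in every library without bFGF.

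The Jun family, which pairs with Fos proteins or with itself, was at 152 FPKM in sum on day 0, 149 to 292 FPKM without bFGF and 143 to 379 FPKM with it. Summed Jun family RNA exceeded summed Fos family RNA in each library, by 1.13 times on day 0 and up to 5.84 times in C of day 5. Jund, the most constitutive member and one that restrains growth in some cells, changed little without bFGF, between 66.7 and 79.1 FPKM. With bFGF it was 52.1 (B) and 55.6 FPKM (BC) on day 1, 83.6 and 70.0 FPKM on day 3, 142.5 and 94.8 FPKM on day 5, and 143.7 and 126.9 FPKM on day 7. Levels with bFGF were thus below those without it on day 1 and above them on days 5 and 7. The fitted effect was -0.39 on the log2 scale on day 1 (SE 0.14, adjusted p = 0.0851, and from 0.0249 without BC or B of day 5), 2.15-fold higher on day 5 (adjusted p = 1.12e-05) and 2.79-fold higher on day 7 (adjusted p = 8.21e-07, all edgeR). Over all days it was 0.60 (SE 0.22, adjusted p = 0.0296), a call that was lost in 7 of 16 fits that each left out 1 library (BM, B or C of day 5 or any library of day 7, adjusted p up to 0.0842) and without TMM (0.31, adjusted p = 0.116).

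Junb, an immediate early member that can oppose Jun, rose with time in both states. It was 49.2 FPKM on day 0, between 45.0 and 57.4 FPKM on day 1 and between 106.8 and 156.6 FPKM on day 7. On day 7 the B and BC libraries (156.6 and 123.7 FPKM) were above BM and C (115.4 and 106.8 FPKM), and the fitted bFGF effect was 1.82-fold (edgeR adjusted p = 0.000603). On the earlier days the values ran from 0.07 to 0.38 on the log2 scale and missed the threshold. The day 3 effect passed without BC of day 3 (0.54, adjusted p = 0.00524) and was -0.18 without B of day 3. The day 5 effect passed without BC or B of day 3 or B of day 5 (adjusted p from 0.00668). The effect over all days was 0.38 (SE 0.13, adjusted p = 0.0164) with TMM and 0.09 (adjusted p = 0.417) without it. On day 7 the call was also lost without TMM (0.33, adjusted p = 0.0938).

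Jun itself, the classical partner of Fos, was 46.2 FPKM on day 0 and peaked at 102.4 FPKM in C of day 5. In BM it was 37.3, 57.5, 71.7 and 58.9 FPKM on days 1, 3, 5 and 7, in C 30.1, 80.0, 102.4 and 82.0 FPKM, in B 55.1, 49.2, 59.4 and 78.7 FPKM, and in BC 42.8, 29.8, 66.4 and 89.6 FPKM. The libraries with bFGF were higher on day 1, lower on days 3 and 5 and mixed with the others on day 7. The fit gave 1.61-fold lower on day 3 (edgeR adjusted p = 0.0498) and 1.75-fold higher on day 7 (adjusted p = 0.0149), and -0.02 on the log2 scale on day 5. The day 3 call was lost in 10 of 16 fits with 1 library left out (any library of day 1, BC or C of day 3, BC or B of day 5 or of day 7), to -0.27 (adjusted p = 0.406) without BC of day 3, and the day 7 call without BC or BM of day 7 (adjusted p up to 0.143) and without TMM (0.27, adjusted p = 0.352). Over all days the effect was 0.19 (SE 0.22, adjusted p = 0.453).

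Egr1, the zinc finger factor that ERK signalling induces within minutes, crossed between the states. It stood at 33.4 FPKM on day 0. In BM it was 7.27, 21.4, 50.0 and 56.5 FPKM on days 1, 3, 5 and 7, and in C 3.77, 18.5, 44.4 and 43.4 FPKM. In B it was 20.2, 29.5, 4.12 and 29.2 FPKM, and in BC 17.5, 4.87, 5.43 and 22.7 FPKM. Without bFGF the level thus climbed from its lowest on day 1, and with bFGF it was lowest on day 5 in B and on day 3 in BC. The libraries with bFGF were above those without it on day 1 and below them on days 5 and 7, and the states overlapped on day 3. The fitted bFGF effect was 3.73-fold higher on day 1 (log2 fold change 1.90, SE 0.49, edgeR adjusted p = 0.0311) and 7.14-fold lower on day 5 (-2.84, SE 0.50, adjusted p = 0.000236). The day 1 call was lost when any of the 4 libraries of day 1 was left out (adjusted p up to 0.217), although both bFGF libraries of that day were above both others. On day 3 (-0.27, from -1.81 to 0.55 with 1 library left out), on day 7 (-0.40, and -0.94 without TMM, adjusted p = 0.43 and 0.0696) and over all days (-0.38, SE 0.56, adjusted p = 0.556), the effect missed the threshold. The day 3 effect passed, lower with bFGF, when B of day 3 was left out (-1.81, adjusted p = 0.000324), and was 0.55 (adjusted p = 0.0633) without BC of day 3.

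Egr2, a related zinc finger factor, was low, at 0.34 FPKM on day 0 and between 0.04 and 1.47 FPKM in the cultures. Its counts ran from 4 in BC of day 5 (exact Poisson interval 1.09 to 10.2) to 80 in BM of day 7 (63.4 to 99.6). On day 7 it was 1.47 and 1.27 FPKM in BM and C and 0.26 and 0.3 FPKM in B and BC. On day 5 it was 0.64 and 0.7 FPKM without bFGF and 0.04 and 0.08 FPKM with it. On both days the libraries without bFGF were the higher ones, as for Egr1. With no filter on low values, edgeR called Egr2 lower with bFGF on day 5 (-2.44, adjusted p = 0.000728) and day 7 (-1.47, adjusted p = 0.00436). A 30-base stretch of its promoter, chr10:67537793-67537822, plus strand, from -76 to -47, is shown because it holds a CArG box, the SRF site that 1.63% of all promoters in the table hold. The table lists several starts for Egr2, and positions are counted from 1 of these. Capitals mark the CArG box and, on the other strand, a CRE core.
Egr2: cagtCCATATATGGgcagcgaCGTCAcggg
Of the other 7 matched members none held a CArG box in this window, which says only that these letters were not found there.

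Ier3, an early response gene that modulates ERK signalling and survival, was the lowest member. It stood at 0.82 FPKM on day 0 and at 0.54, 0.3, 1.03 and 0.84 FPKM in BM, C, B and BC on day 1. From day 3 it was at most 0.21 FPKM without bFGF and was not listed in BM of day 5. With bFGF it was 1.43 (B) and 0.67 FPKM (BC) on day 3, 0.11 and 0.37 FPKM on day 5, and 0.26 and 0.31 FPKM on day 7. These levels rest on 0 to 28 counts, and the ranges with and without bFGF overlap. With no filter on low values the edgeR effect over days 1 to 7 was 2.18 on the log2 scale (adjusted p = 0.000885), a size that depends on the prior count at such low numbers.

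When the bFGF effect was taken by day, the number of the 8 tested members past the threshold was 4 on day 1, 3 on day 3, 5 on day 5 and 7 on day 7. On day 1, Fosb, Fosl1 and Egr1 were higher and Fosl2 lower, against a background of 6.21% of all tested genes higher and 4.46% lower. On day 3, Fosl1 was higher and Fos and Jun lower (25.4% and 25%). On day 5, Fosb, Fosl1 and Jund were higher and Fos and Egr1 lower (37.2% and 38.6%). On day 7, Fos, Fosb, Fosl1, Jun, Junb and Jund were higher and Fosl2 lower (38.8% and 39.6%). Without TMM, 36.2%, 40.1%, 27.3% and 27.1% of the genes called were higher on days 1, 3, 5 and 7, against 58.2%, 50.4%, 49.1% and 49.5% with it. The background grew with the days, and the share of members was furthest above it on day 1, when Egr1 and Fosl2 were calls that leaving out 1 library could end (adjusted p up to 0.217 and 0.0782).

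**Figure D3:**
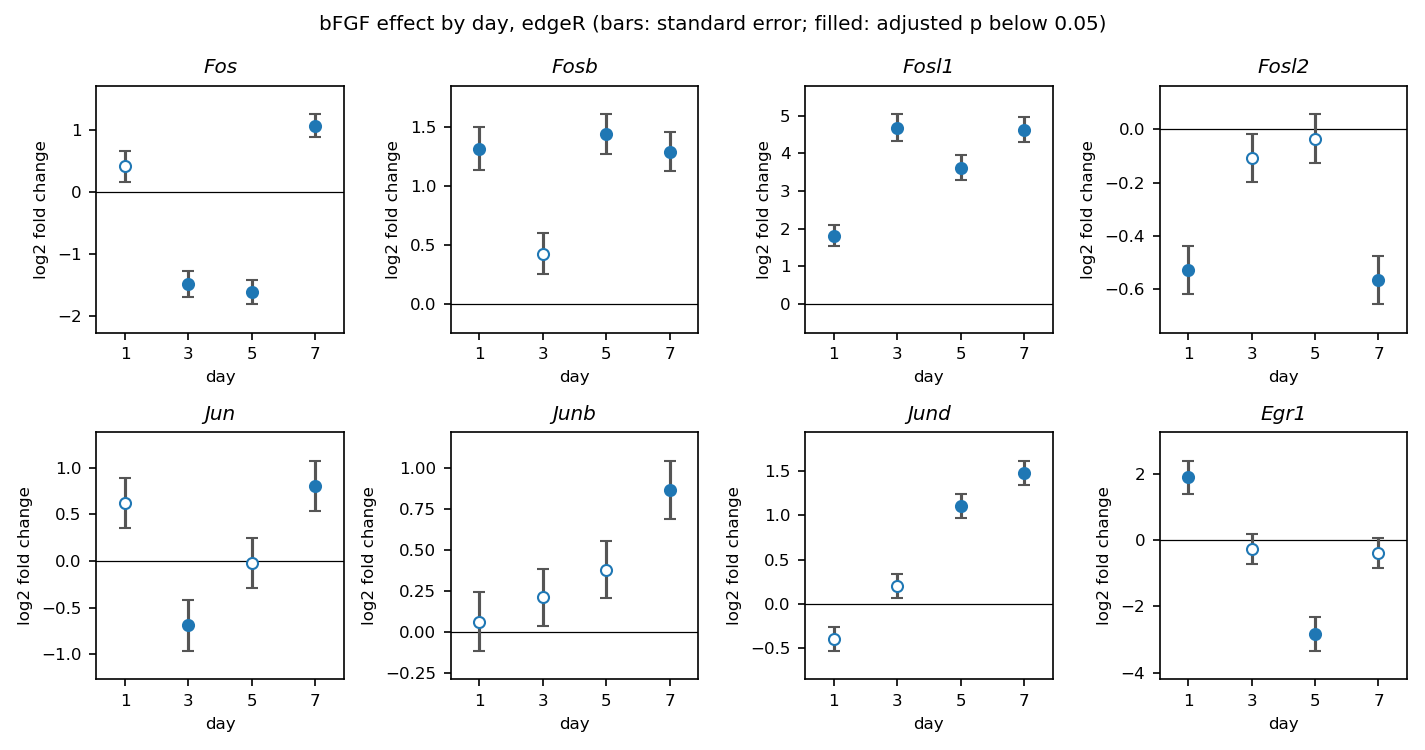
Fitted log2 fold change with bFGF against without (vertical axis, a separate scale for each gene) on days 1, 3, 5 and 7 for the 8 tested genes, with bars of 1 standard error and filled points where the edgeR adjusted p is below 0.05. Fosl1 is above 0 on each day, Fos is below 0 on days 3 and 5 and above on day 7, and Egr1 is above on day 1 and below on day 5.

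Whether the bFGF effect differed between days was tested as an interaction. All 8 tested members passed, with 76.3% of all tested genes passing as well. The adjusted p ran from 7.49e-06 for Fos to 0.0467 for Junb (edgeR). Junb lost its call in 12 of 16 fits that left out 1 library, all but those without BC or B of day 3 or of day 5 (adjusted p up to 0.172), and without C of day 3 the count of members fell to 5, with Fosb and Jun also lost.

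The time course within each state gave the same picture from the other side. Without bFGF, 6 members passed from day 1 to day 3: Fos (log2 change 2.17), Egr1 (1.92), Jun (1.04), Junb (1.04) and Fosb (0.76) rose and Fosl1 fell (-3.36), against 35.4% of all tested genes higher and 32% lower. From day 3 to day 7 Fosb was the only one to pass (0.56, adjusted p = 0.0408), when 9.15% of genes rose and 9.25% fell, and 4 members passed when either BC or B of day 3 was left out. The Fosb call was lost without BC or B of day 1, BM of day 3, or BM or C of day 7 (adjusted p up to 0.378). From day 1 to day 7 the same 6 genes passed in the same directions, with Egr1 at 3.19, Fos at 2.73 and Fosl1 at -2.50 (background 32.3% and 31.5%).

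With bFGF, 3 members passed from day 1 to day 3, Junb (1.19), Fosl2 (0.61) and Jund (0.54), all higher (background 32.4% higher and 32.9% lower), and 6 passed without B of day 3. From day 3 to day 7 all 8 passed, 7 higher and Fosl2 lower (-0.56), with Fos at 3.12, Jun at 1.49, Fosb at 1.43 and Jund at 1.23 (background 32.7% and 33.6%). Between days 1 and 7, Fos (3.39), Junb (1.90), Jund (1.76), Fosb (1.30) and Jun (1.22) rose (background 35.8% and 39.5%). Without TMM the share of higher calls was 22.7% in place of 49.4% from day 3 to day 7 with bFGF, 28.2% in place of 47.5% from day 1 to day 7 with bFGF, and 60.3% in place of 49.7% from day 3 to day 7 without bFGF. The summed level of 10 heat shock genes, 3560 FPKM on day 0, also moved with these days in the bFGF libraries, from 1940 (B) and 1360 FPKM (BC) on day 3 to 4500 and 5370 FPKM on day 7, against 1230 (BM) and 1170 FPKM (C) on day 7 without bFGF. Hspa1a, the inducible HSP70, went from 5.88 to 142.2 FPKM in B and from 4.04 to 237.3 FPKM in BC. Bag3, on the same list, went down over these days, from 44.3 to 38.5 FPKM in B and from 52.8 to 42.2 FPKM in BC. Dnajb1 fell from 20.2 to 16.4 FPKM in B and rose from 17.65 to 22.1 FPKM in BC. On day 7, 8 of the 10 were called higher with bFGF and 1, Bag3, lower (edgeR, background 38.8% and 39.6%). The part of a stress response in the day 7 levels of Fos, Jun and the other members was not tested.

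BC of day 3 stood apart from B of the same day. Of 11258 genes with a mean of at least 1 FPKM over the 17 libraries, 239 (2.12%) differed at least 2-fold on the log2(FPKM + 1) scale between these 2 libraries, against 19 to 67 genes in the other 7 pairs that differed in CHIR99021 only. Egr1 was 4.87 FPKM in BC and 29.5 FPKM in B, Fosl1 37.5 and 87.4 FPKM, Junb 80.9 and 149.6 FPKM, and Jun 29.8 and 49.2 FPKM. With no second library of this condition, a CHIR99021 effect and a property of the library cannot be told apart. Without BC of day 3, Egr1 with bFGF changed by 0.57 from day 1 to day 3 (adjusted p = 0.0493) in place of -0.25 (adjusted p = 0.661). From day 3 to day 7 with bFGF, 6 members passed without it, since Fosl1 (0.34, adjusted p = 0.232) and Egr1 (0.33, adjusted p = 0.246) were lost. The Egr1 call there was lost in 13 of the 16 fits that each left out 1 library, all but those without B of day 3, BC of day 5 or B of day 5.

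CHIR99021 gave no call among the 8 tested members over days 1 to 7 (edgeR, background 0.0532% of genes higher and 0.284% lower). At an unadjusted p under 0.05 there were 3, Fosb, Fosl2 and Junb, all lower, and DESeq2 called 1, Fosb (log2 fold change -0.51, adjusted p = 0.0431). Fosb (-0.51, SE 0.15, adjusted p = 0.206) and Fosl2 (-0.21, SE 0.09, adjusted p = 0.447) were lower with CHIR99021 in 8 of 8 pairs of libraries that differed in it only, as were 7% of all tested genes, while 6.64% were higher in 8 of 8. The same CHIR99021 effect in the model that holds a term for each day and bFGF state, which leaves a smaller spread, called Fosb (adjusted p = 0.00235), Fosl2 (adjusted p = 0.0101) and Junb (adjusted p = 0.0473), among 2199 genes in place of 38. Jun was higher in C than in BM on days 3, 5 and 7 (80.0 against 57.5, 102.4 against 71.7 and 82.0 against 58.9 FPKM) and lower on day 1 (30.1 against 37.3 FPKM). A test of whether the bFGF effect differed with CHIR99021 gave no call among the members, 0 at an unadjusted p under 0.05 and 0 with DESeq2 (background 0.00887% higher and 0% lower), and with SEs from 0.18 for Fosl2 to 1.04 for Egr1 on the log2 scale it could show only large differences.

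**Figure D4:**
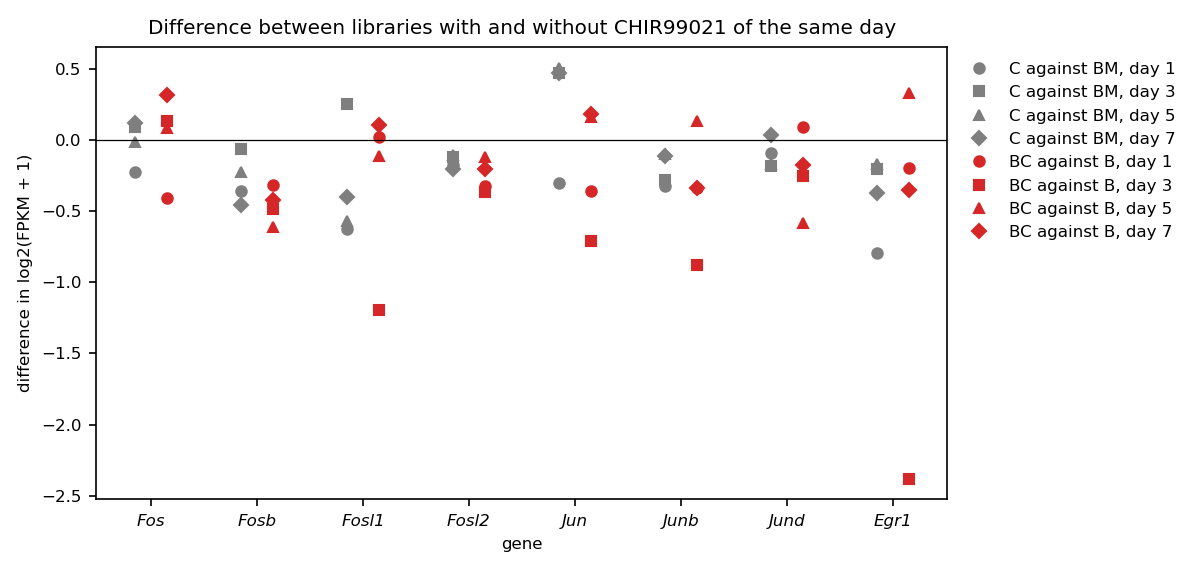
Difference in log2(FPKM + 1) between the library with CHIR99021 and the one without it of the same day and bFGF state (vertical axis) for the 8 tested genes, in grey for C against BM and in red for BC against B, with 1 symbol for each day. Fosb and Fosl2 are below 0 in 8 of 8 pairs, and BC against B of day 3 gives the lowest point for Egr1, Fosl1, Fosl2, Jun and Junb.

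Levels on day 0 and day 1 were set side by side with no test. Egr1 stood at 33.4 FPKM on day 0 and below that in each library of day 1, at 20.2 (B), 17.5 (BC), 7.27 (BM) and 3.77 FPKM (C). Fosl1 followed the same order of states, from 109.7 FPKM to 85.4 and 86.6 FPKM with bFGF and 32.5 and 20.7 FPKM without. Fosl2 instead was 19.9 FPKM on day 0, 37.3 (BM) and 32.9 FPKM (C) on day 1 without bFGF, and 25.7 (B) and 20.4 FPKM (BC) with it. In these 3 genes the bFGF libraries of day 1 were the nearer ones to day 0.

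Other AP-1 partners, a list of 10 ATF, BATF, JDP and small MAF factors, gave 5 higher and 1 lower of 8 tested for the bFGF effect over days 1 to 7, with a median log2 fold change of 0.67 beside -0.002 for all tested genes. Jdp2, a repressive AP-1 partner, fell (-0.60, SE 0.09, edgeR adjusted p = 0.000242), from 49.8 to 71.4 FPKM without bFGF to 21.6 to 42.9 FPKM with it. Maff, a small MAF protein, rose by 2.52 (SE 0.40, adjusted p = 0.000325), and Batf3, a bZIP partner of Jun proteins, by 1.41 (SE 0.24, adjusted p = 0.000526). Maff went up to 91.8 FPKM in B of day 7, against 8.79 FPKM in BM of that day.

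Of 28 other immediate early genes, 23 were tested, 14 rose and 3 fell, with a median of 0.52. Ptgs2, the inducible cyclooxygenase, rose by 1.90 (SE 0.20, adjusted p = 3.77e-05). Errfi1, a feedback inhibitor of the EGF receptor, rose by 1.53 (SE 0.19, adjusted p = 8.29e-05). Btg2, an antiproliferative gene, fell by 1.85 (SE 0.27, adjusted p = 0.000193, all edgeR). The upstream list, 17 genes of ERK, JNK and p38 kinases, SRF with its cofactors and EGR co-repressors, split evenly into 5 higher and 5 lower, with a median of 0.06. In it Rps6ka1, the ERK-activated kinase RSK1, rose (0.87, adjusted p = 0.000122), the SRF cofactor Mkl1 fell (-0.73, adjusted p = 0.00129), the ternary complex factor Elk3 rose (0.46, adjusted p = 0.0027), and Srf itself did not pass (-0.15, adjusted p = 0.123).

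Textbook AP-1 targets were tested for 18 of 20 genes, of which 13 rose and 4 fell (median 1.00). The 3 with the lowest adjusted p were Hmga2, an architectural chromatin protein (2.53, adjusted p = 2.39e-06), Cd44, a hyaluronan receptor (1.30, adjusted p = 6.31e-06), and Timp1, an inhibitor of metalloproteases (1.42, adjusted p = 2.4e-05). Of the heat shock list all 10 passed, 8 higher and 2, Dnajb1 and Bag3, lower (median 1.15). The list was led by the mitochondrial chaperones Hspd1 (0.87, edgeR adjusted p = 6.31e-05) and Hspe1 (1.30, adjusted p = 0.000406) and by Hspa8 (0.97, adjusted p = 0.000728). These lists stand beside a background in which 34.6% of genes were called higher and 33.9% lower.

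**Figure D5:**
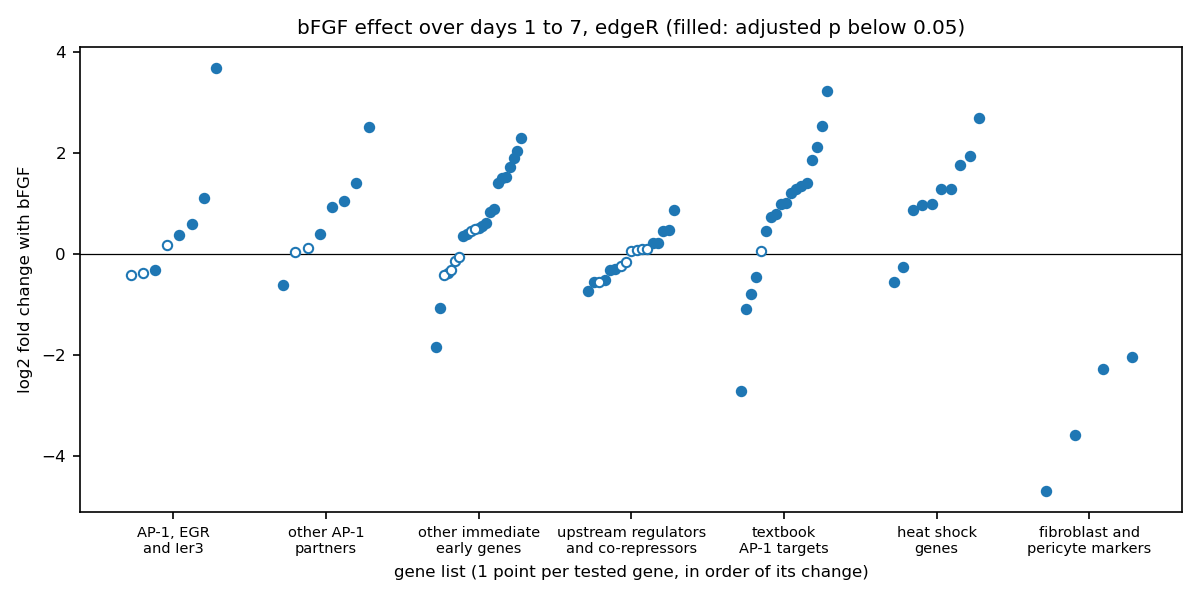
Fitted log2 fold change with bFGF over days 1 to 7 (vertical axis) of each tested gene of the AP-1, EGR and Ier3 list and of 6 related lists (horizontal axis), with genes in order of their change and filled points where the edgeR adjusted p is below 0.05. Points lie on both sides of 0 in each list but the fibroblast and pericyte markers, all 4 of which lie below.

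The genes whose levels followed each member most closely over the 17 libraries were taken by Pearson's r of log2(FPKM + 1), given as a description since the libraries share days and treatments. For Fosl1 they were Pgm1 (r = 0.982), Kcnn4 (0.975) and Upp1 (0.971). For Fos they were Atox1 (0.947), Atp6v1g1 (0.943) and Cib1 (0.936), for Fosb Fam129b (0.898), Eaf1 (0.886) and Itga7 (0.885), and for Fosl2 Btbd7 (0.939), Numb (0.928) and Tob1 (0.924). The Jun family members had Sdc1 (0.88), Pea15a (0.858) and Edf1 (0.851) nearest to Jun, Ndfip1 (0.946), Pnck (0.945) and Tgfb1 (0.937) to Junb, and H2afv (0.969), Gadd45b (0.943) and Arl6ip1 (0.93) to Jund. Egr1 had the least close neighbours, Lif (0.829), Prss36 (0.788) and Nptx1 (0.782). Among the members themselves the highest values were 0.846 for Fos with Jun and 0.799 for Egr1 with Egr2, and the lowest was -0.723 for Fos with Ier3.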

How the data were processed

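Poly-A RNA of 17 libraries of mNRPCs was sequenced on the BGISEQ-500 platform, 1 library for each treatment and day, grouped by the sample labels. For each gene the authors deposited the expected count, estimated from the reads and often fractional (63.9% to 66.6% of values were whole), beside an FPKM value scaled by transcript length and library total. Files list genes from 0.01 FPKM, and a gene not listed was read as 0. The processing notes in the labels name Bowtie2, RSEM and mm10, whereas the study's methods name Bowtie 2 and eXpress, so the counting tool is not settled. Versions are not given in the sources used here. Whether counting used strand is not given either.

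Rounded expected counts went into edgeR 4.0.16 under R 4.3.3 with TMM scaling, glmQLFit and glmQLFTest. The 11272 genes that averaged 1 FPKM or more over the 16 cultured libraries were tested, and p-values were adjusted over them by Benjamini-Hochberg (threshold 0.05). Terms were day, bFGF and CHIR99021 for effects over days 1 to 7, with their interaction in a further model, and 1 coefficient for each day and bFGF state plus CHIR99021 for effects by day and over time. These models leave 10, 9 and 7 residual degrees of freedom. SEs are the log2 fold change divided by the square root of F. The scripts were checked on simulated data in which few genes changed with bFGF, up and down equally often, and none with CHIR99021. That check does not cover the scaling where most genes are called, as here. Alternatives were no filter, a minimum of 5 FPKM, no TMM, DESeq2 1.42.0, limma 3.58.1 on log2(FPKM + 1), on log2(FPKM + 0.1) and on quantile-normalized values, leaving out each day or library, other model terms, and the 4 libraries of a day alone. Promoters and gene positions are RefSeq's for GRCm38.p6, matched by gene ID for 8 members, with no promoter entry for Fosl1 and Egr1. Python 3.11.15, numpy 2.4.6, pandas 2.3.3, scipy 1.17.1 and matplotlib 3.10.9 were used.

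The 10 members and the related gene lists were chosen with earlier results of these data known. Genes named from a related list are the 3 with the lowest adjusted p for the bFGF effect over days 1 to 7, and neighbours are the 3 highest correlations. Srf, Hspa1a, Bag3, Dnajb1, Acta2 and the markers were named after their values were seen.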

Additional observations from a re-analysis of the deposited data

Results flagged for a closer look

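The edgeR interaction test of bFGF and day passed in each of the 8 tested members, as it did in 76.3% of all tested genes. The adjusted p was 7.49e-06 for Fos, 1.57e-05 for Jund, 0.000188 for Fosl1, 0.000621 for Egr1, 0.00368 for Fosl2, 0.00856 for Fosb, 0.0125 for Jun and 0.0467 for Junb. Junb lost its call in 12 of 16 fits that left out 1 library, and Fosb and Jun lost theirs without C of day 3. Fos, Jun, Jund and Egr1 had fitted effects of opposite sign on different days, whereas Fosl1 was higher with bFGF on each day and differed in size.

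Egr2, under the minimum level for the test, had both pairs of libraries higher with bFGF on day 1, by 0.18 on average on the log2(FPKM + 1) scale, and both lower on day 7, by -0.89 on average. With no filter on low values the edgeR interaction of bFGF and day passed for Egr2 (adjusted p = 0.00251).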

How the results depend on the processing

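Alternatives other than leaving out 1 library were compared with the main fit for the effects of single members. The effect stayed on its side of the threshold in 837 cases, gained a call in 26 and lost it in 48. In 3 more the sign turned and the main fit or the alternative was called. The 837 include any turn of sign where neither fit was called. Signs were not compared for the interaction of bFGF and day. The 3 were Fosl2 from day 1 to day 7 with bFGF, at -0.39 without TMM, -0.37 by limma on log2(FPKM + 1) and -0.39 by limma on log2(FPKM + 0.1), in place of 0.05. Egr1 from day 1 to day 3 with bFGF was 0.57 without BC of day 3 and -1.80 without B of day 3, in place of -0.25, and each of these 2 passed. For the bFGF effect over days 1 to 7, 5 members passed, but 3 without TMM, under each of the 3 limma fits, and without day 5 or day 7. From day 3 to day 7 with bFGF 8 passed, and 5 without TMM and by limma with either pseudocount. From day 3 to day 7 without bFGF 1 passed, 3 with no filter (which adds Egr2 and Ier3 to the test), and 2 without TMM, with DESeq2 and by limma on log2(FPKM + 1). CHIR99021 gave 0 members, 1 with DESeq2 and 3 with a coefficient for each day and bFGF state. Leaving out 1 library at a time gave 2 to 5 members for the bFGF effect on day 1 (4 with all libraries), 0 to 4 from day 3 to day 7 without bFGF, 3 to 6 from day 1 to day 3 with bFGF and 5 to 8 for the interaction of bFGF and day.

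Without TMM the median of all genes moved to -0.29 (log2) for the bFGF effect over days 1 to 7 and to -0.54 on day 7, and the called genes split into 2245 higher and 5702 lower in place of 3896 and 3817. The Junb and Jund calls over days 1 to 7 and the Junb and Jun calls on day 7 were lost without TMM, so these calls depend on the scaling. Of all genes, CHIR99021 called 38, and 22 with no filter, 281 with DESeq2, 72 on quantile-normalized values, 24 without day 1, 0 without day 3, 5 or 7, and 2199 with a coefficient for each day and bFGF state. The bFGF effect called 7713, and 5116 without day 5. On day 3 it called 5680, and 2534 from the libraries of that day alone. On day 1 it called 1203, and 145 to 375 when a library of that day was left out. From day 3 to day 7 without bFGF 2074 were called, and 680 to 959 without BM or C of day 3 or of day 7. The CHIR99021 count was 1 to 20 in 14 of 16 fits without 1 library. The cause of these differences was not tested. No paired analysis by replicate number was possible because the labels carry none. Day, which the libraries with and without each additive share, is a term of each model. Depth limits Egr2 and Ier3, at 0 to 80 counts.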
